A study of Homo sapiens with 10 samples.

Results

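Zinc transporters and metallothioneins were followed across the human prostate cancer lines LNCaP and DU145. The members were all genes whose array annotation carried an SLC30A symbol (zinc transporter, ZnT), an SLC39A symbol (ZIP), an MT1 symbol with a letter, MT2A or MT3, pseudogenes left out. This gave 32 of the 19775 genes that had a probe set of their own: 10 ZnT, 14 ZIP and 8 metallothioneins. A total of 69 probe sets measured them, and 13 members had 1 probe set each. The brightest probe set on average stood for each gene. A filter on dim probe sets was passed by 29 members (9 ZnT, 13 ZIP and 7 metallothioneins) of 14313 genes in all. MT1M, SLC30A10 and SLC39A12 did not pass it and are given without a test.

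Total RNA was measured on Affymetrix expression arrays, 1 per sample, 10 in all. LNCaP responds to androgen and came from a lymph node metastasis, DU145 does not and came from a brain metastasis, and each gave 5 arrays in 3 states. EOS cells carried a vector with GFP and a puromycin resistance gene under OCT4 and SOX2 enhancers and were enriched in puromycin (2 arrays per line). A further array per line held EOS cells number 2 treated with ribavirin, a guanosine analogue, at a dose and time not given in the sources used here. PGK cells, the controls, carried GFP and puromycin resistance under the ubiquitous PGK promoter (2 arrays per line). All groups were thus transduced cells, and the labels do not say whether arrays 1 and 2 came from separate cultures, so the p-values rest on differences between arrays that could be technical only.

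Zinc is held within narrow limits in the cytosol. ZIP proteins bring zinc into the cytosol from outside the cell or from organelles, ZnT proteins move it out of the cell or into vesicles and the Golgi, and metallothioneins are small cysteine-rich proteins that bind zinc and copper. Normal prostate epithelium is known for unusually high zinc, which limits its citrate oxidation, and prostate cancers are known to lose much of it. When zinc rises, the transcription factor MTF1 binds metal response elements in the promoters of metallothionein genes and of SLC30A1.

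The metal response element has the core TGCACNC or TGCGCNC (reverse strand GNGTGCA or GNGCGCA). The RefSeq promoter table (GRCh38.p14) had an entry for 24 of the 32 members. Both strands of the 250 bases before the gene start listed there were searched. For SLC39A10 and SLC30A3 this window lay inside the gene as annotated, and for SLC39A8 it overlapped the gene. At least 1 core was found in 24.8% of 35116 promoters, and at least 3 in 1.58%. All 3 metallothioneins in the table held at least 3, with 8 in MT1H, 7 in MT2A and 4 in MT1X. Of 9 ZnT promoters 5 held a core, with 3 in SLC30A2, 2 in SLC30A3 and 1 each in SLC30A1, SLC30A4 and SLC30A6. Of 12 ZIP promoters, those of SLC39A3 and SLC39A6 held 1 each. A match describes these letters and is not shown to be a binding site. The following 4 promoters are shown because they contrast metallothioneins with SLC30A1, a zinc exporter known to be induced through the same element. They read 5′ to 3′ on the gene's strand, and capitals mark the cores found:
MT2A, chr16:56608334-56608583, plus strand: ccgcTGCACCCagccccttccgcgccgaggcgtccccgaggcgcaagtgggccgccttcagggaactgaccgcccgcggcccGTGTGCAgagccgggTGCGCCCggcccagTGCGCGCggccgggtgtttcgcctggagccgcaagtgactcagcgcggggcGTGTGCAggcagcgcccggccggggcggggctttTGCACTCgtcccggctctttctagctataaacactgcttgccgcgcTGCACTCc
MT1X, chr16:56682220-56682469, plus strand: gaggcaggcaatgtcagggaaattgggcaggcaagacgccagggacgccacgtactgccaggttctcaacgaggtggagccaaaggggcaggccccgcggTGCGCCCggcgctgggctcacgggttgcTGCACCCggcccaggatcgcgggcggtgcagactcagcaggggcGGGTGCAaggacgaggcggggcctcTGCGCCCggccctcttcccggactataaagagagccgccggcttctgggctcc
MT1H, chr16:56669564-56669813, plus strand: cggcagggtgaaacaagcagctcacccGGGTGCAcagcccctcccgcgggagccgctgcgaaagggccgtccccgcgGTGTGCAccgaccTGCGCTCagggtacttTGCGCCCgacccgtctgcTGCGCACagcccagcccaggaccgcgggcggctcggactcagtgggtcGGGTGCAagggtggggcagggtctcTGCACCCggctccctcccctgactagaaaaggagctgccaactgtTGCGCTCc
SLC30A1, chr1:211579162-211579411, minus strand: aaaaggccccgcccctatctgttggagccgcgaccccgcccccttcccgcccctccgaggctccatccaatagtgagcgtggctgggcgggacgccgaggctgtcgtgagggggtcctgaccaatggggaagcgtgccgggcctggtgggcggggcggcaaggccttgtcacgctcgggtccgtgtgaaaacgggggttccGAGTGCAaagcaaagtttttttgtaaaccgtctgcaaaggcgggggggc
In these windows the cores of MT2A are spread from end to end, the nearest core of MT1X lies 46 bases from the gene start, and the single core of SLC30A1 lies on the reverse strand, 42 bases from the gene start.

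Levels below are log2(intensity + 16) after each array was scaled to the same trimmed mean, a scale with a floor of 4 that understates changes of dim genes. The labels of the lines were checked first. KLK3, which encodes prostate-specific antigen, lay between 14.80 and 15.33 in LNCaP and between 4.62 and 5.89 in DU145. CD44, a surface receptor known to be high in DU145, lay between 4.11 and 5.23 in LNCaP and between 11.16 and 11.74 in DU145. The leukocyte markers PTPRC, CD3D and CD14 did not pass the filter. The fourth, the lysozyme gene LYZ, passed and moved with the array number in LNCaP, at 7.70 in ribavirin-treated EOS, 7.50 in EOS 2 and 7.27 in PGK 2, against 4.31 in EOS 1 and 4.30 in PGK 1. In DU145 LYZ lay between 4.12 and 5.75, and its part in the comparisons of array numbers was not tested. As deposited, the arrays numbered 2 had trimmed means of 96.6 to 126.5, against 500 for number 1, so the number marks 2 deposited scales. LNCaP PGK 2 stood apart from the other LNCaP arrays for several genes, and results that rest on it are given with and without it.

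Between the lines, the 2 vesicular exporters SLC30A4 and SLC30A2 and the importer SLC39A4 were higher in LNCaP, while MT1E and 3 other metallothioneins were lower. In the fit of all 10 arrays with limma (LNCaP minus DU145, averaged over the 3 states, adjusted over all genes), 14 of 29 members passed the 0.05 threshold, or 48.3%, against 48.4% of all genes tested. Of these, 6 were higher in LNCaP (23.5% of all genes) and 8 were lower (24.9%). The share of members past the threshold was thus that of the arrays as a whole, and the counts by family were as follows. ZnT had 4 higher and 1 lower of 9 (the lower one is SLC30A1, whose 2 kept probe sets disagree in direction), ZIP had 2 higher and 3 lower of 13, and metallothioneins had 0 higher and 4 lower of 7. A difference between the families was not tested. The family medians were 0.55 for ZnT, -0.16 for ZIP and -0.47 for metallothioneins, beside -0.04 for all genes. Of all genes 48.1% had a positive value, against 0 of 7 metallothioneins. Each of the 14 members kept its sign in the arrays numbered 1 and in those numbered 2. Without LNCaP PGK 2, SLC30A4 differed by 3.67, SLC30A2 by 1.61, SLC39A4 by 2.65 and MT1E by -2.72. With fewer arrays, the count of members past the threshold was 9 for PGK cells alone (33.1% of all genes) and 7 for EOS cells alone (30.4%). With the array number as a replicate block it was 16 (55.6%). In RNA of whole cultures, fewer cells with a transcript and less of it per cell cannot be told apart.

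**Figure D1:**
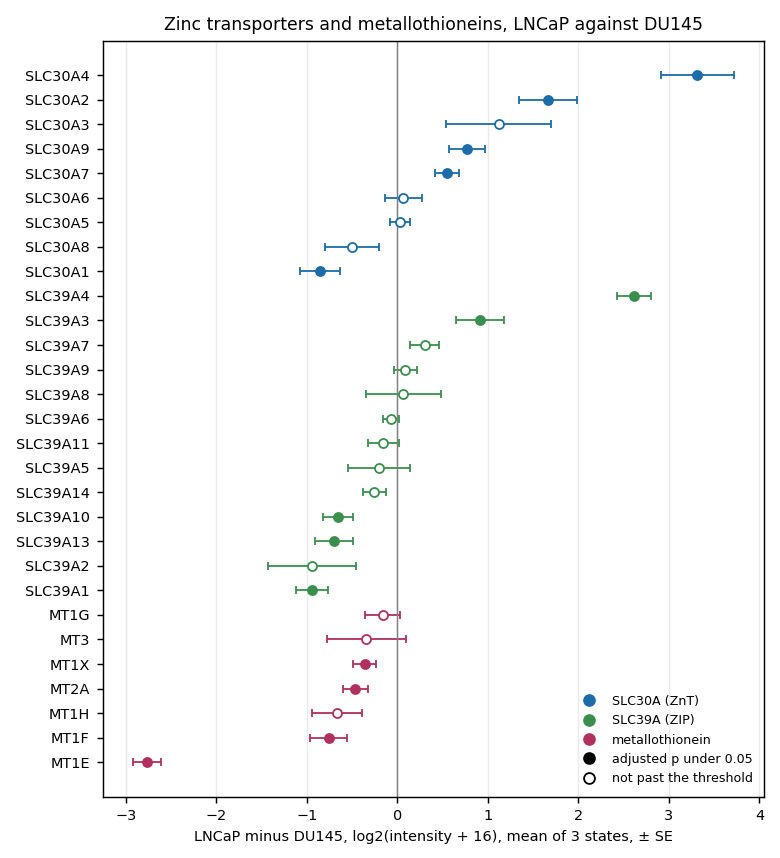
Difference between LNCaP and DU145 (log2 scale, mean of the 3 states) for the 29 tested members, grouped by family, with standard errors from the limma fit of 10 arrays. Filled points passed the threshold: SLC30A4 stands farthest right at 3.32, MT1E farthest left at -2.77, and all 7 metallothioneins lie left of 0.

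SLC30A4 loads zinc into vesicles and endosomes, and its loss causes zinc-poor milk in mice. Its level in LNCaP was 13.86 in ribavirin-treated EOS cells, 13.80 and 13.00 in EOS cells, and 13.05 and 10.93 in PGK cells. In DU145 it was 9.85 in ribavirin-treated EOS cells, 9.998 and 9.23 in EOS cells, and 9.87 and 9.80 in PGK cells. Every LNCaP array was above every DU145 array, with LNCaP PGK 2 well below the other 4 of its line. The gene (chr15:45479606-45522755) differed by 3.32 ± 0.40 (9.96-fold, standard error over 5 arrays per line, limma adjusted p = 0.000213), by 3.51 in the arrays numbered 1 and by 2.43 in those numbered 2. Its 2 other probe sets differed by 4.11 and 1.88 in the same direction.

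SLC30A2 also fills secretory vesicles with zinc and is known from the mammary gland, where its mutation lowers the zinc of human milk. It was dimmer, at 6.66 in ribavirin-treated EOS, 7.03 and 6.65 in EOS and 6.17 and 5.83 in PGK cells of LNCaP. The DU145 values were 5.53 in ribavirin-treated EOS, 4.57 and 4.51 in EOS and 4.61 and 4.22 in PGK cells, most of them close to the floor. The lines did not overlap, and the ribavirin array was the highest of DU145. The difference was 1.67 ± 0.32 (3.18-fold, limma adjusted p = 0.00267). Because most DU145 values were near the floor, this fold is compressed. The second probe set of SLC30A2 did not pass the filter. It gave 0.02, with the arrays of both lines near the floor, from 4.32 to 5.03.

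The other exporters moved less. SLC30A7, a Golgi zinc transporter, was higher in LNCaP by 0.55 ± 0.13 (adjusted p = 0.0091, limma), although its other kept probe sets gave -0.02 and 1.32. SLC30A9, known for zinc export from mitochondria, was higher by 0.77 ± 0.20 (adjusted p = 0.0116), with 0.94 from its second probe set. SLC30A5 and SLC30A6, which pair to load zinc into the early secretory pathway, differed by 0.03 ± 0.11 and 0.07 ± 0.20 and did not pass. Their other kept probe sets gave from -0.01 to 1.04 for SLC30A5 and from -0.23 to 1.78 for SLC30A6. SLC30A3, known from synaptic vesicles, differed by 1.12 ± 0.58 (adjusted p = 0.146), and SLC30A8, the transporter of insulin granules, by -0.50 ± 0.30 (adjusted p = 0.202).

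SLC30A1 is the exporter of the plasma membrane, which protects cells from excess zinc. It stood at 10.06 in ribavirin-treated EOS, 10.32 and 9.62 in EOS and 10.36 and 10.23 in PGK cells of LNCaP, against 11.23 in ribavirin-treated EOS, 11.27 and 10.77 in EOS and 11.03 and 10.28 in PGK cells of DU145. The lines overlapped through DU145 PGK 1 alone. The fit gave -0.86 ± 0.22 (adjusted p = 0.0111, limma). This direction held for the brighter probe set only: the other kept probe set gave 1.25, and the mean of both gave 0.20, so no direction is settled for SLC30A1.

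**Figure D2:**
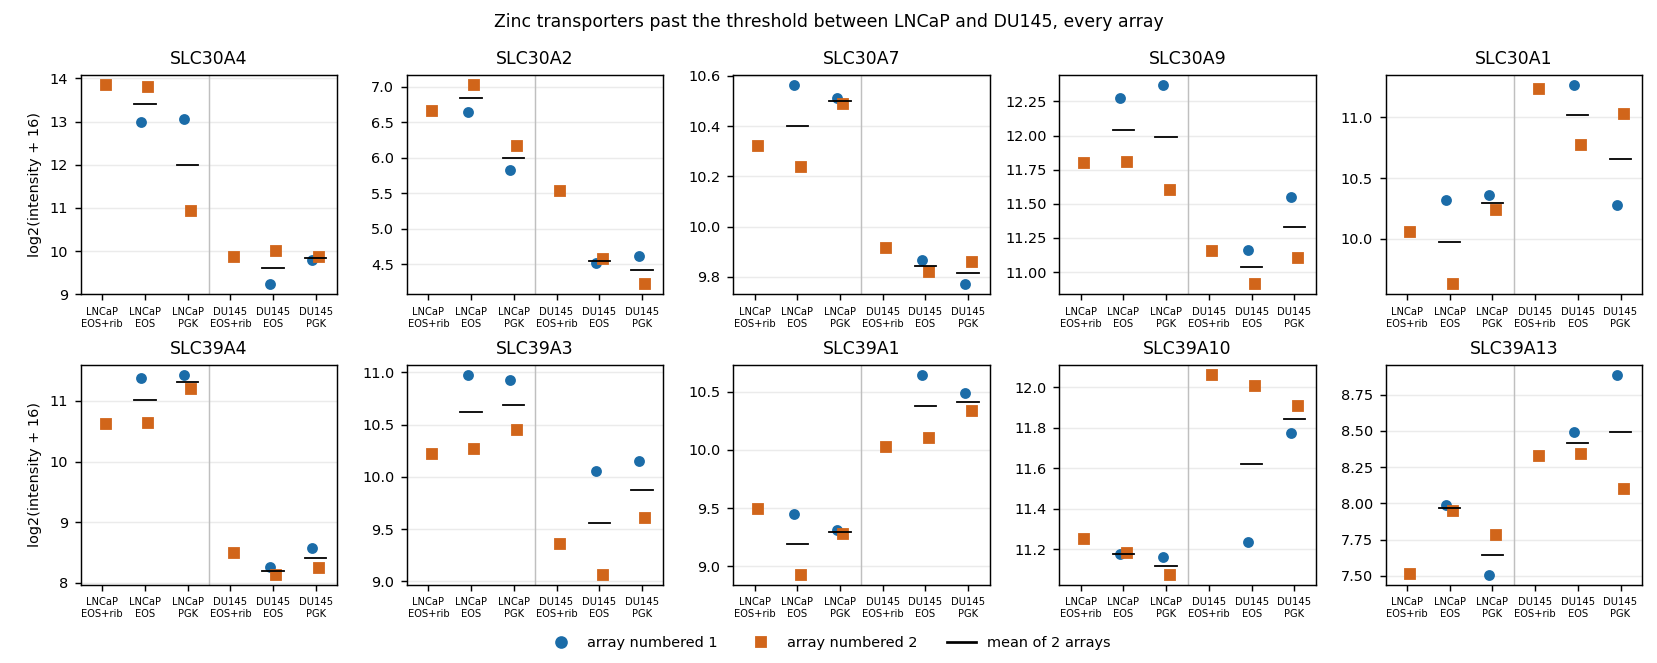
Level of the 10 zinc transporters that passed the threshold between the lines, log2(intensity + 16) in every array, with LNCaP groups left of DU145 groups and a bar at the mean of 2 arrays. SLC30A4, SLC30A2, SLC30A7, SLC30A9, SLC39A4 and SLC39A3 separate without overlap with LNCaP above, SLC39A1 and SLC39A13 with DU145 above.

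Among importers, SLC39A4 was the clearest. It is the zinc uptake protein of the intestine, and its loss causes acrodermatitis enteropathica, an inherited zinc deficiency. Its level in LNCaP was 10.62 in ribavirin-treated EOS, 10.64 and 11.38 in EOS and 11.20 and 11.43 in PGK cells. In DU145 it was 8.50 in ribavirin-treated EOS, 8.13 and 8.26 in EOS and 8.24 and 8.57 in PGK cells. The lines were apart by far more than their arrays spread, at 2.62 ± 0.19 (6.13-fold, limma adjusted p = 1.02e-05). In LNCaP the arrays of EOS 2 and its ribavirin treatment were lower than the other 3. SLC39A3, a plasma membrane importer, was higher in LNCaP by 0.91 ± 0.26 (limma adjusted p = 0.0189), with -0.10 from its second kept probe set.

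SLC39A1, the importer that is best known in prostate epithelium and has been reported to fall in prostate cancer, was lower in LNCaP. Its LNCaP level was 9.49 in ribavirin-treated EOS, 8.93 and 9.45 in EOS and 9.27 and 9.31 in PGK cells, and its DU145 level was 10.03 in ribavirin-treated EOS, 10.11 and 10.64 in EOS and 10.33 and 10.48 in PGK cells. All LNCaP arrays were below all DU145 arrays. The difference was -0.95 ± 0.18 (1.93-fold lower, limma adjusted p = 0.00238). SLC39A10, an importer known from B cells, differed by -0.66 ± 0.17 (limma adjusted p = 0.0103), and SLC39A13, which supplies zinc from vesicles in connective tissue cells, by -0.70 ± 0.21 (adjusted p = 0.0231). The LNCaP and DU145 arrays overlapped for SLC39A10 through DU145 EOS 1, and not for SLC39A13. The second kept probe set of SLC39A13 gave -0.31. On it the lines overlapped, with ribavirin-treated EOS of LNCaP at 8.03 and DU145 EOS 1 at 7.97.

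The other 8 tested importers did not pass. SLC39A6, an oestrogen-regulated importer first described in breast cancer, lay between 13.99 and 14.26 in LNCaP and between 14.15 and 14.30 in DU145, a difference of -0.07 ± 0.09. SLC39A7 releases zinc from the endoplasmic reticulum and differed by 0.30 ± 0.16. SLC39A9, also described as a membrane androgen receptor, differed by 0.09 ± 0.13, and SLC39A14, which carries iron and manganese as well, by -0.25 ± 0.13. The second kept probe set of SLC39A9 gave 0.90, and that of SLC39A14 gave -0.11. SLC39A2, a plasma membrane importer, was near the floor in LNCaP (4.28 to 5.20) and wider in DU145 (4.52 to 6.63), and its difference of -0.94 ± 0.48 did not pass (limma adjusted p = 0.141). Of the untested members, SLC39A12, known from brain, lay at 4.06 to 5.56 in LNCaP and 4.10 to 5.89 in DU145, and SLC30A10, known as a manganese exporter, at 4.07 to 5.71 in LNCaP and 4.18 to 4.41 in DU145.

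The metallothionein genes lie side by side on chromosome 16 and have closely similar sequences. For 6 of the 8, the probe set used carries the maker's mark for probes that may also match related sequences, so their values cannot be taken as independent. No metallothionein probe set was annotated to several genes. MT1E (chr16:56625781-56627112) showed the largest difference of the family. Its level in LNCaP was 9.70 in ribavirin-treated EOS, 9.74 and 9.77 in EOS and 9.32 and 9.65 in PGK cells. In DU145 it was 12.57 in ribavirin-treated EOS, 12.05 and 11.96 in EOS and 12.39 and 12.97 in PGK cells. The lines were far apart, at -2.77 ± 0.16 (6.83-fold lower, limma adjusted p = 2.65e-06), and its second probe set gave -4.58.

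The other metallothioneins differed less between the lines. MT2A, the most widely expressed human metallothionein, lay at 13.69 in ribavirin-treated EOS, 13.70 and 13.78 in EOS and 13.31 and 13.49 in PGK cells of LNCaP. The DU145 values were 14.10 in ribavirin-treated EOS, 14.04 and 13.91 in EOS and 13.84 and 14.48 in PGK cells. The lines did not overlap, although by a small margin, and differed by -0.47 ± 0.14 (limma adjusted p = 0.0214). MT1F differed by -0.76 ± 0.20 (adjusted p = 0.0139, limma) and MT1X by -0.36 ± 0.13 (adjusted p = 0.0462), each lower in LNCaP with arrays that overlap. Their second probe sets gave -0.17 and -0.07. The call for MT1X was lost without LNCaP PGK 2 (adjusted p = 0.0716), and in 6 of the 8 fits that left out 1 array. The calls of MT2A, MT1F and MT1X were also lost with EOS arrays alone. With PGK arrays alone 4 of 7 metallothioneins passed (33.1% of all genes), MT2A at -0.75, MT1F at -1.25 and MT1X at -0.62 among them. With EOS arrays alone 5 of 7 lay below 0, a share that was not counted for all genes in that fit. MT1E alone passed there, beside 30.4% of all genes. MT2A was at -0.23 (limma adjusted p = 0.434), MT1F at -0.38 (adjusted p = 0.388) and MT1X at -0.16 (adjusted p = 0.586).

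MT1H at -0.67 ± 0.27 (limma adjusted p = 0.0735), MT1G at -0.16 ± 0.20 and MT3 at -0.34 ± 0.44 did not pass between the lines. MT3, the brain metallothionein, ranged from 5.08 to 7.19 in LNCaP and from 4.96 to 7.35 in DU145. The glial and neuronal markers GFAP and SYP did not pass the filter in these lines. The neuronal marker NEFL did, at 4.14 to 9.65 in LNCaP and 10.03 to 10.89 in DU145, and its part in the MT3 values was not tested. MT1M lay at the floor in all LNCaP arrays (4.13 to 4.36) and between 4.30 and 7.10 in DU145. Without overlap of any array, 6 members were higher in LNCaP (20.4% of all genes) and 4 higher in DU145 (22% of all genes).

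**Figure D3:**
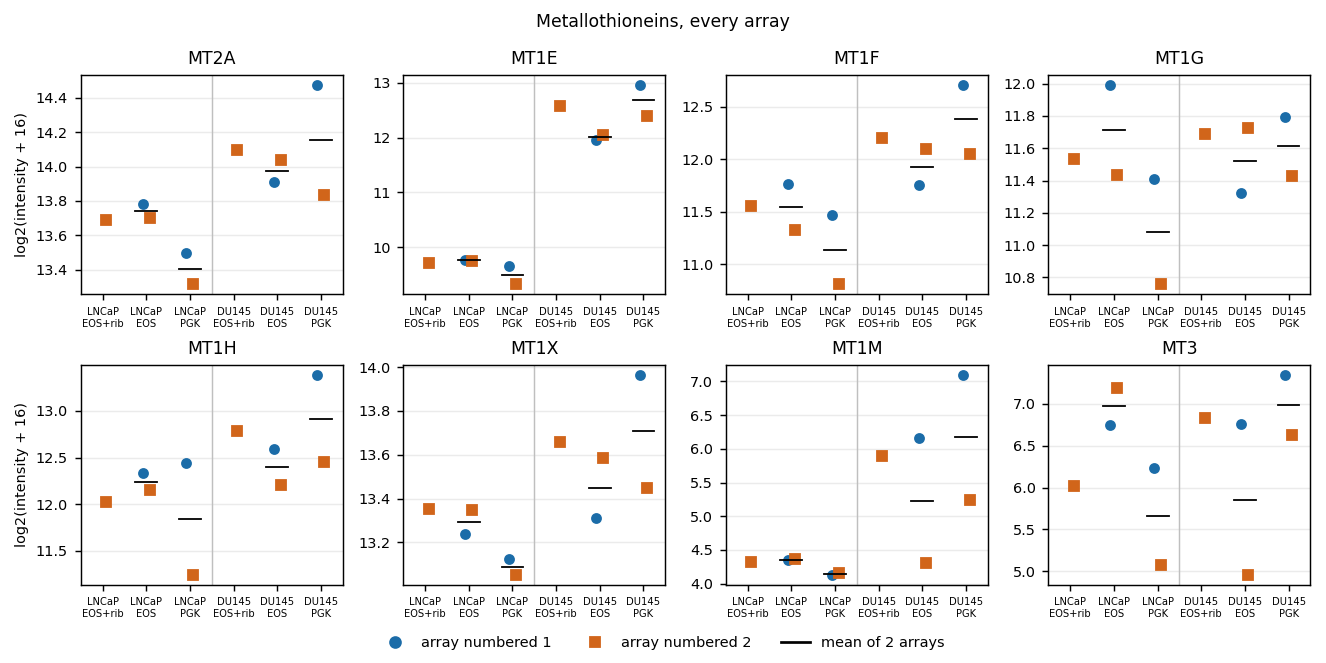
Level of the 8 metallothioneins, log2(intensity + 16) in every array, with LNCaP groups left of DU145 groups and a bar at the mean of 2 arrays. For each gene the DU145 PGK 1 circle is the highest of the 5 DU145 points. The LNCaP PGK 2 square is the lowest of the 5 LNCaP points for each gene but MT1M.

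Other genes, most of them known from metal handling, were read from a list of 25. Of these, 23 were tested and 13 passed between the lines (5 higher and 8 lower in LNCaP). MTF1, the zinc sensor that switches on metallothionein genes, was higher in LNCaP, with 10.07 in ribavirin-treated EOS, 9.78 and 9.97 in EOS and 10.08 and 9.92 in PGK cells, against 9.08 in ribavirin-treated EOS, 9.36 and 9.13 in EOS and 9.16 and 9.20 in PGK cells of DU145. The lines did not overlap for MTF1, at 0.82 ± 0.14 (limma adjusted p = 0.00157). SLC11A2, the iron importer DMT1, was higher in LNCaP by 1.23, the copper importer SLC31A1 by 1.06, the copper chaperone ATOX1 by 0.93 and the kinase subunit CSNK2A1 by 0.34. Lower in LNCaP were the haem-degrading enzyme HMOX1 at -3.61, the zinc-sensing receptor GPR39 at -3.05, the glutathione synthesis enzymes GCLC at -2.47 and GCLM at -1.12, the vesicular zinc transporter TMEM163 at -2.33, SLC31A2 at -1.38, the ferritin chain FTL at -1.34 and MTF2 at -0.58. The list's share of 56.5%, which counts MTF2, stands beside 48.4% for all genes. Whether MTF2 acts in metal handling was not tested.

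The comparison of EOS with PGK cells is the one the study names. In DU145 no member passed the threshold, and neither did any other gene (0 of 14313). At an unadjusted p under 0.05 limma gave 1 member, against 1.58% of all genes. That member was MT1E, whose second kept probe set overlapped, at 13.14 and 12.70 in EOS and 12.87 and 13.44 in PGK cells. The probe set used for MT1E lay at 12.05 and 11.96 in EOS and 12.39 and 12.97 in PGK cells. Both its EOS arrays were below both PGK arrays. Its difference was -0.67 ± 0.23 (standard error over 2 arrays per group, limma adjusted p = 1), or -1.01 between the arrays numbered 1 and -0.34 between those numbered 2. The 3 members with the next smallest p were SLC39A5, an importer of pancreas and liver cells, at -0.89 ± 0.51, MT3 at -1.13 ± 0.66 and MT1F at -0.46 ± 0.31, all with a limma adjusted p of 1. Single arrays moved these values: MT1E was -0.38 ± 0.26 without DU145 PGK 1, and MT1F was -0.13 ± 0.35 without that array, -0.29 ± 0.39 without EOS 1 and -0.79 ± 0.35 without PGK 2. MT3 was -0.23 ± 0.64 without DU145 EOS 2 and -2.03 ± 0.66 without EOS 1. In these DU145 arrays EOS lay below PGK without overlap for 4 members (MT1E, SLC39A5, SLC39A9 and SLC39A11), beside 16% of all genes. On their second kept probe sets MT1E and SLC39A9 overlapped, with SLC39A9 at 7.11 and 7.73 in EOS and 6.92 and 7.37 in PGK cells.

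All 7 tested metallothioneins had a negative value in DU145, with a median of -0.46, while 47.2% of all genes had a positive one. Their direction differed between the pairs. All 7 lay below 0 between the arrays numbered 1 (53.4% of all genes) and 3 of 7 between those numbered 2 (49.6%). DU145 PGK 1 was the highest of the 5 DU145 arrays for each of the 7, beside 20% of all genes, and without that array 4 of 7 were below 0. The epithelial markers were also highest there. Their summed level was 13.57 in ribavirin-treated EOS, 13.59 and 13.96 in EOS 2 and EOS 1, and 13.93 and 14.45 in PGK 2 and PGK 1, and KRT8, KRT18, CDH1 and EPCAM each had their highest DU145 value in PGK 1. The fibroblast list, 4 of whose 6 genes passed the filter, had its highest DU145 sums in ribavirin-treated EOS and EOS 2. Its summed level was 11.64 in ribavirin-treated EOS, 11.49 and 8.79 in EOS 2 and EOS 1, and 9.62 and 8.88 in PGK 2 and PGK 1. In ribavirin-treated EOS and EOS 2 POSTN was at 10.99 and 10.77 and COL3A1 at 8.63 and 9.01. In PGK 2 they were at 7.24 and 5.71. COL1A1 and DCN did not separate these EOS arrays from PGK 2. The part of neither list in the metallothionein values was tested.

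In LNCaP the metallothioneins pointed the other way, and again nothing passed (0 of 14313 genes). The unadjusted p was under 0.05 for 1 member, against 4.16% of all genes. This was SLC30A4, at 13.80 and 13.00 in EOS and 10.93 and 13.05 in PGK cells. The EOS and PGK arrays overlapped, and the difference of 1.40 ± 0.60 (limma adjusted p = 0.999) was -0.05 between the arrays numbered 1 and 2.86 between those numbered 2. Without LNCaP PGK 2 it was 0.34 ± 0.40. SLC39A5 at 1.13 ± 0.51, MT1G at 0.63 ± 0.29 and MT3 at 1.31 ± 0.66 followed (limma adjusted p = 0.999 each). Without LNCaP PGK 2, SLC39A5 was 0.54 ± 0.53, MT1G 0.30 ± 0.32 and MT3 0.73 ± 0.76. Without PGK 1 SLC30A4 was 2.47 ± 0.41, SLC39A5 1.72 ± 0.55 and MT1G 0.96 ± 0.32, and without EOS 1 MT1G was 0.35 ± 0.33.

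MT1G, a metallothionein induced by zinc, stood at 11.43 and 11.99 in EOS and 10.76 and 11.41 in PGK cells of LNCaP. Both EOS arrays were above both PGK arrays, narrowly so for EOS 2 and PGK 1. All 7 metallothioneins had a positive value in LNCaP (median 0.40), beside 56% of all genes, with 6 of 7 above 0 between the arrays numbered 1 (55.7% of all genes) and 7 of 7 between those numbered 2 (54.3%). LNCaP PGK 2 was the lowest of the 5 LNCaP arrays for each of the 7, beside 25.2% of all genes. This did not hold on the second kept probe sets of MT1E and MT1X. For MT1E PGK 1 was at 7.39 against 8.29 in PGK 2. For MT1X EOS 1 and PGK 1 were at 12.84 and 12.90 against 12.99 in PGK 2. Without LNCaP PGK 2, 6 of 7 were above 0. EOS lay above PGK without overlap for 9 members (18% of all genes), namely MT1E, MT1G, MT1X, MT2A, MT3, SLC30A2, SLC39A5, SLC39A10 and SLC39A13, and below it for SLC30A5 (10.6%). On other kept probe sets MT1X and SLC30A5 overlapped, with MT1X at 13.28 and 12.84 in EOS and 12.99 and 12.90 in PGK cells.

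**Figure D4:**
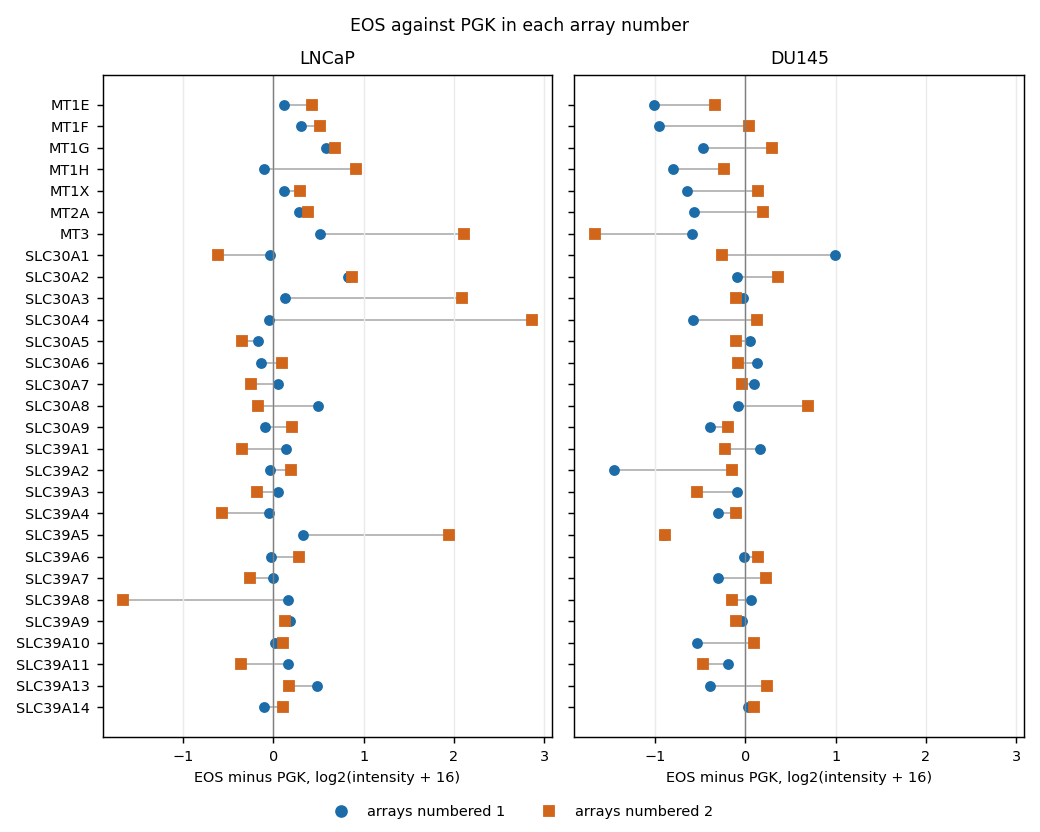
Difference between EOS and PGK (log2 scale) for the 29 tested members, between the arrays numbered 1 (circles) and between those numbered 2 (squares), in LNCaP and in DU145. In LNCaP the metallothioneins lie right of 0 apart from MT1H in number 1, and in DU145 number 1 they all lie left of 0. The SLC39A5 points of DU145 coincide at -0.90 and -0.89.

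Whether the EOS difference itself differed between the lines was tested as an interaction, and no member or other gene passed (0 of 14313, limma). The unadjusted p was under 0.05 for 3 members, against 3.24% of all genes. MT1E differed by 0.95 ± 0.33, SLC39A5 by 2.03 ± 0.72 and MT3 by 2.44 ± 0.94, each with a limma adjusted p of 1. MT1F came next, at 0.86 ± 0.43. Without LNCaP PGK 2 the values were 0.78 ± 0.36 for MT1E, 1.44 ± 0.68 for SLC39A5, 1.86 ± 0.98 for MT3 and 0.54 ± 0.43 for MT1F. MT1F was also 0.54 ± 0.46 without DU145 PGK 1, and MT3 was 1.55 ± 0.82 without DU145 EOS 2. All 7 metallothioneins had a more positive value in LNCaP than in DU145, with a median of 0.86. Of all genes 55.6% had a more positive value there. For SLC39A5 the EOS arrays of LNCaP were at 6.86 and 6.42 against 4.92 and 6.10 in PGK, while those of DU145 were at 5.64 and 5.90 against 6.53 and 6.80 in PGK. Both EOS arrays were above PGK in LNCaP and below it in DU145, with LNCaP PGK 2, at 4.92, the lowest of these 8 arrays.

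Ribavirin was measured on 1 array per line, and the fit takes the spread of that array from the other groups. Averaged over both lines, ribavirin-treated EOS cells differed from EOS cells in no member and in no gene (0 of 14313, limma). No member had an unadjusted p under 0.05, while 1.77% of all genes did. The 4 members with the smallest p were SLC39A5 at -0.81 ± 0.44, SLC39A7 at -0.32 ± 0.21, SLC30A8 at -0.51 ± 0.39 and SLC30A3 at 0.98 ± 0.76 (limma adjusted p = 1 each). SLC30A3 was 0.26 ± 0.51 without LNCaP EOS 1 and 1.70 ± 0.55 without LNCaP EOS 2. For SLC39A5 the treated array of LNCaP was at 5.22 against 6.86 and 6.42 in EOS, and that of DU145 was at 5.56 against 5.64 and 5.90 in EOS. The drop below the EOS arrays was thus wide in LNCaP and slight in DU145.

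SLC39A7 stood at 10.59 in the treated array against 10.53 and 10.88 in EOS in LNCaP, and at 10.04 against 10.57 and 10.59 in DU145. It was below both EOS arrays in DU145 and between them in LNCaP. SLC30A8 stood at 4.40 in the treated array against 6.11 and 6.70 in EOS in LNCaP, and at 6.95 against 6.20 and 5.71 in DU145. The lines moved apart on this probe set only. The other kept probe set of SLC30A8 was higher in the treated array in both lines. It stood at 6.58 against 5.97 and 4.19 in LNCaP, and at 6.51 against 5.94 and 6.02 in DU145. SLC30A3 stood at 7.65 in the treated array against 7.50 and 4.62 in EOS in LNCaP, and at 5.33 against 5.02 and 4.88 in DU145. Against EOS 2, the cells that were treated, it differed by 0.15 in LNCaP and by 0.31 in DU145.

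Against EOS number 2 alone, 6 of 7 metallothioneins were higher in treated DU145 cells and 3 of 7 in treated LNCaP cells. Of all 29 members, 18 were above EOS 2 in DU145 (52.7% of all genes) and 14 in LNCaP (47.3% of all genes). Averaged over both lines, 6 of 7 metallothioneins had a positive value, beside 52.6% of all genes. In DU145 MT1E differed by 0.53, MT1H by 0.58 and MT3 by 1.87, and the untested MT1M by 1.59. In LNCaP MT1E differed by -0.04, MT1H by -0.13 and MT3 by -1.16. These are differences between single arrays, and DU145 EOS 2 was the lowest DU145 array for MT1H, MT1M and MT3. The MT1E values did not hold on its second kept probe set. There the treated array stood at 13.18 against 13.14 in EOS 2 of DU145, and at 8.55 against 9.62 in LNCaP.

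LNCaP PGK 2 differed most from its line in 2 transporters. SLC39A8, an importer of zinc, manganese and cadmium (chr4:102251041-102345482), was at 11.94 in ribavirin-treated EOS, 12.17 and 11.63 in EOS and 13.83 and 11.47 in PGK cells of LNCaP. In DU145 it was at 11.78 in ribavirin-treated EOS, 12.03 and 12.43 in EOS and 12.18 and 12.37 in PGK cells. LNCaP PGK 2 was the highest of all 10 arrays, 1.66 above the next LNCaP array, and for SLC30A4 it was below the next by a value of -2.07. These were the 2 of 29 members that lay over 1 log2 unit outside the range of the other 4 LNCaP arrays, beside 2.49% of all genes. All 3 kept probe sets of each gene showed it. Against the median of the other 4 arrays those of SLC30A4 were at -2.49, -2.39 and -1.93, and those of SLC39A8 at 2.05, 1.89 and 1.40.

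Some androgen-responsive and other marker genes were low in the same array. KLK2 was at 12.55 in LNCaP PGK 2 and at 13.94 or above in the other 4 LNCaP arrays, and TMPRSS2 was at 11.79 against 12.67 or above. The neuronal marker NEFL was at 4.14 in LNCaP PGK 2 and between 7.11 and 9.65 in the other LNCaP arrays, while KLK3 was at 15.01, within their range. Their part in the member values was not tested. Without LNCaP PGK 2, SLC30A4 was higher in LNCaP than in DU145 by 3.67 ± 0.23 (limma adjusted p = 1.23e-05).

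**Figure D5:**
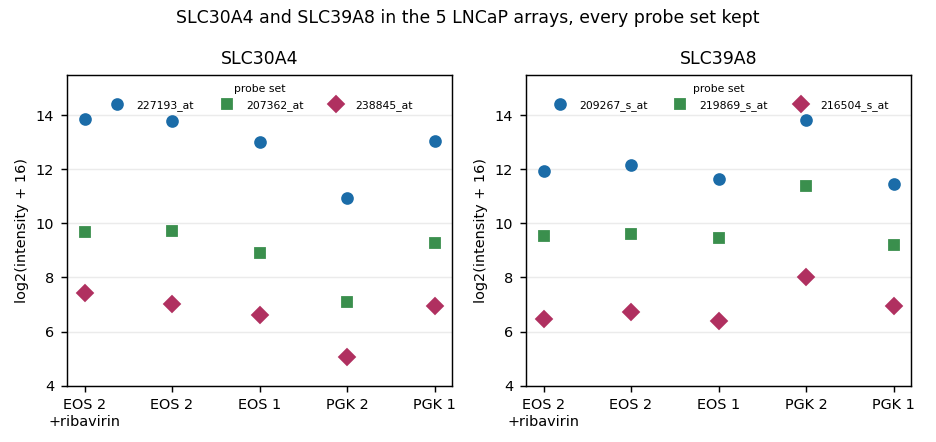
Level of every kept probe set of SLC30A4 and SLC39A8, log2(intensity + 16), in the 5 LNCaP arrays. In PGK 2 all 3 probe sets of SLC30A4 are the lowest and all 3 of SLC39A8 the highest of the 5.

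The number of the array was compared within LNCaP, because earlier results showed it to separate these arrays. With the 6 groups kept in the fit, 1 member passed for number 2 against number 1, beside 6.45% of all genes. SLC30A9 was at 11.81 and 11.60 in the EOS and PGK arrays numbered 2 and at 12.28 and 12.37 in those numbered 1, without overlap. The difference was -0.62 ± 0.15 (limma adjusted p = 0.0498), and without LNCaP PGK 2 it no longer passed (-0.47 ± 0.20, adjusted p = 0.233). SLC39A8 differed by 1.45 ± 0.35 (limma adjusted p = 0.0504), by 0.54 between the EOS arrays and by 2.36 between the PGK arrays, and was singled out after its values were seen. Of the 29 members 10 had an unadjusted p under 0.05, beside 23.7% of all genes. SLC30A6 at -0.67 ± 0.17, SLC39A3 at -0.60 ± 0.19 and MT1G at -0.61 ± 0.19 were among them. Another kept probe set of SLC30A6 went the other way. It was at 7.02 and 6.77 in EOS 2 and PGK 2, against 6.25 and 4.47 in EOS 1 and PGK 1. The remaining kept probe sets of SLC30A6 were higher in EOS 2 than in EOS 1 and lower in PGK 2 than in PGK 1. Of the 23 tested genes of the metal handling list 1 passed, or 4.35%, and it was SLC40A1, the iron exporter ferroportin. It was at 8.46 and 8.62 in the EOS and PGK arrays numbered 2, against 4.34 and 6.02 in those numbered 1, without overlap, and differed by 3.36 ± 0.39 (limma adjusted p = 0.00373).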

How the data were processed

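Linear probe set intensities were deposited, 1 column per array, and per the submitters' processing notes MAS5 and affy were used; no version or genome build is given in the sources used here. The planned test assumed values ready for a log scale. Because the authors' intensities had different scales, a factor per array brought the mean, trimmed by 2% at each end, to 500, and log2(intensity + 16) was taken. Of 54675 probe sets 62 array controls were left out, and those above the array median in at least 2 of 10 arrays were kept (33451). The probe set of highest mean among those annotated to 1 gene symbol gave 14313 genes. Symbols came from the platform annotation, with coordinates and promoters from RefSeq (GRCh38.p14).

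The tests used limma 3.58.1 (R 4.3.3) on cell means of the 6 groups, moderated with a trend on intensity, with Benjamini-Hochberg adjusted p under 0.05 over all genes as the threshold. The spread was estimated from all 10 arrays together. Standard errors (after ±) come from that fit, and the number of arrays limits their precision. The comparison of array numbers in LNCaP used the fit with the number within each line as a term. The alternatives were pseudocounts of 1 and 64, no filter, the mean of probe sets, quantile normalization, intensities as deposited, PGK or EOS arrays alone, a replicate block and leaving out each array.

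The members and lists were chosen with earlier results of these data known. Every member may be named. Full statistics were given for members past the threshold and, where none passed, for the 4 of smallest unadjusted p. For the metal handling list, values were given for genes past the threshold and for MTF1. The promoters printed, SLC39A8 in the comparison of array numbers and the members given beside LNCaP PGK 2 were chosen after their values were seen.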

Additional observations from a re-analysis of the deposited data

How the results depend on the processing

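Between the lines, 14 members passed the threshold, 9 with PGK arrays alone (33.1% of all genes), 7 with EOS arrays alone (30.4%) and 0 of 29 on the intensities as deposited, where each PGK and EOS group mixes both deposited scales. For all genes the count was 6931, 4355 with EOS arrays alone and 442 as deposited. Leaving out 1 array gave 12 to 14 members and 5908 to 6921 genes. SLC30A1 turned to 0.20 with the mean of probe sets, as did SLC30A8 under ribavirin, at 0.25. The array numbers paired the arrays only by number, with deviations from the group mean correlated across genes at r = 0.484 in LNCaP and r = 0.123 in DU145. With the replicate block 16 members passed between the lines, adding MT1H (-0.66, limma adjusted p = 0.0111) and SLC39A14 (-0.28, adjusted p = 0.0286), beside 55.6% of all genes. The block left 0 calls in the EOS, interaction and ribavirin comparisons. At an unadjusted p under 0.05 it gave 3 members for EOS against PGK in LNCaP (9.06% of all genes), against 1 without the block, and 6 for the interaction (7.21%), 5 of them metallothioneins, against 3 without the block.

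For number 2 against number 1 in LNCaP, 1 member passed. The count was 0 with a pseudocount of 1, quantile normalization, no filter or the mean of probe sets, 2 with a pseudocount of 64, and 0 to 3 without 1 array, with the call of SLC30A9 kept in 2 of 10 such fits. On the intensities as deposited it was 27 members and 13177 genes, and SLC39A8 turned to -0.89, because the deposited scale differs by number. Leaving out 1 array gave 474 to 940 genes. EOS against PGK in LNCaP gave 0 to 4 genes without 1 array and 0 members throughout. In DU145 the metallothioneins below 0 numbered 4 to 7 without 1 array. The calls of MT1X, MT1F, SLC39A3 and SLC39A13 were lost in 4, 3, 4 and 4 of 9 alternatives, that of SLC39A10 in 3 (adjusted p = 0.054 with PGK arrays alone and 0.219 with EOS arrays alone, limma), and those of MT2A, SLC30A7, SLC30A9 and SLC30A1 in 2 each, beside the turn of SLC30A1. The other 5 calls were lost in 1 each, on the intensities as deposited. The causes were not tested. Without a ribavirin array neither the ribavirin comparison nor the mean of 3 states could be given. Values near the floor of 4, as for SLC30A2, SLC39A2, MT1M and MT3, limit the folds.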
